A study of Mus musculus with 8 samples.

Results

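Regulatory T (Treg) cells, suppressive CD4+ T cells that depend on the transcription factor Foxp3, from Bcl11b-deficient and Bcl11b-sufficient animals were compared for 10 genes that display, activate or transmit transforming growth factor beta (TGF-beta). The 10 genes were taken by symbol from a table of 23997 genes, and each had 1 row. They are Lrrc32, Tgfb1, Itgav, Itgb8, Itgae, Tgfbr1, Tgfbr2, Smad3, Smad7 and Ski. RNA sequencing covered sorted CD4+YFP+ cells of C57BL/6 mice in 2 groups of 4 deposited columns, given as FPKM, the number of fragments per kilobase of transcript scaled to the size of the library. Bcl11b-deficient cells came from Bcl11b f/f Foxp3-YFP-Cre/+ animals, in which both copies of Bcl11b are floxed. Bcl11b-sufficient cells came from Bcl11b f/+ Foxp3-YFP-Cre/+ animals, with 1 floxed and 1 wild-type copy. Both groups therefore carry the YFP-Cre fusion in 1 Foxp3 allele, and the sufficient cells are not free of the floxed allele. Cre is expressed from that Foxp3 allele, so the animals also hold Treg cells that do not express Cre, which the YFP sort leaves out. Where Cre had acted was not measured. The cells were taken from draining lymph nodes and spleen and sorted to a stated purity above 97%. The labels do not give the age of the animals.

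TGF-beta 1, the product of Tgfb1, is made as a latent complex in which the cytokine is held by its own propeptide. On Treg cells the complex is held at the surface by GARP, the product of Lrrc32, and integrins with the alpha v chain, among them alpha v beta 8, release the active cytokine from it. The cytokine binds the type II receptor Tgfbr2, which phosphorylates the type I receptor Tgfbr1. The type I receptor phosphorylates Smad2 and Smad3, which enter the nucleus with Smad4. Smad7 and Ski restrain the signal, the first at the receptor and the second on Smad complexes at DNA. Itgae, which encodes the alpha E chain of the integrin CD103, is induced by TGF-beta in T cells.

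The labels number 4 replicates per group, but the 4 columns of a group were not all treated as separate libraries. In 3 pairs (replicates 1 with 3 and 2 with 4 among the deficient columns, 1 with 3 among the sufficient ones) the spread was 1.16 to 1.32 times what read sampling alone gives. It was 1.85 to 2.88 times in the other 9 pairs of equal genotype. The columns of such a near-identical pair were averaged, leaving 2 deficient and 3 sufficient libraries. Whether each stands for an animal of its own is not stated, and p-values reflect only how these libraries vary, which may be technical. Libraries were run on a HiSeq or a MiSeq instrument, and the labels do not say which on which. Whether the instrument differed between the groups is therefore not known. Depth, read from the size of 1 fragment in low values, was approximately 3065899 to 11748054 fragments in the deficient and 2866547 to 12595760 in the sufficient columns. Total FPKM was 474416 to 495435 in the deficient and 509592 to 613276 in the sufficient columns, where replicate 4 held 31182.5 FPKM of the small RNA Snora61, which was at 0 in all others. Bcl11b itself measured 24.2, 19.3, 24.6 and 18.7 FPKM in deficient replicates 1 to 4, against 42.4, 46.5, 42.4 and 39.1 FPKM in sufficient replicates 1 to 4. Its level was thus lower in every deficient column but not absent, and gene-level FPKM does not separate the floxed part of the transcript from the rest.

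Markers of other cells were measured in the same sort. The summed FPKM of 16 macrophage markers was 351 to 686 in the 2 deficient libraries and 25.6 to 90.4 in the 3 sufficient libraries. All 16 of 16 were higher in both deficient libraries than in every sufficient one, with 7 of 14 tested called higher. Among all genes tested, 18.9% were higher in this way without overlap and 1.93% were called higher, shares that also stand beside the counts below. The counts of markers without overlap include markers too low to be tested, which these shares leave out. The summed FPKM of 8 NK cell markers was 274.9 to 339.5 in deficient and 3.54 to 12.8 in sufficient libraries, mostly Fcer1g. Of these, 3 of 5 tested were called higher (Fcer1g, Klrd1 and Gzma). Klrd1 measured 12.01 and 19.6 FPKM in deficient libraries, against 0.114, 0.235 and 0.800 FPKM in sufficient libraries. The other tested markers, Eomes and Klrb1c, were not called (limma adjusted p = 0.936 and 0.315). Eomes averaged 1.26 FPKM in deficient libraries and 1.20 FPKM in sufficient ones, and Klrb1c 2.33 and 1.27 FPKM. Ncr1, Klre1 and Klra8 were below 0.6 FPKM in every library. Summed dendritic cell markers reached 145.5 to 160.1 FPKM in deficient libraries and 117.7 to 139 FPKM in sufficient ones, mostly Bst2, which averaged 120.1 FPKM in deficient libraries and 120.5 FPKM in sufficient ones. Of the 10 dendritic cell markers 7 were higher in deficient libraries without overlap, and 2 of 5 tested were called higher, Siglech (mean 4.32 FPKM in deficient libraries and 0.146 FPKM in sufficient ones) and Batf3 (3.82 and 0.499 FPKM). Summed B cell markers reached 10.5 to 13.4 FPKM in deficient and 10.4 to 20.6 FPKM in sufficient ones. CD8 T cell markers summed to 10.6 to 11.2 FPKM in deficient libraries and 11.6 to 15.1 FPKM in sufficient ones. Of 9 T cell and Treg markers 8 were in the table. Their sum was 1753 to 1912 FPKM in deficient libraries and 2124 to 2332 FPKM in sufficient ones, but they did not move together. Ctla4, the only 1 called, averaged 110.7 FPKM in deficient libraries and 375.3 FPKM in sufficient ones. Cd3g averaged 545.6 and 543.5 FPKM. Without overlap 5 were lower and 1, Cd4, was higher (292.0 and 260.1 FPKM), against 17.9% and 18.9% of all genes tested. The sum for 10 endothelial and stromal markers, mostly Pecam1, was 80.3 to 86.5 FPKM in deficient libraries and 70.6 to 75.1 FPKM in sufficient ones, with Pdpn at 0 in all. The part of these cells in the results on the 10 genes was not tested. Foxp3, the lineage gene of the sorted cells, measured 152.7 and 153.5 FPKM in deficient libraries, against 197.8, 197.7 and 165.2 FPKM in sufficient libraries. In such bulk samples fewer cells of a type and less RNA per cell cannot be told apart.

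Of the 10 genes, 2 were called lower in deficient libraries and 0 higher, at an adjusted p under 0.05 over 10614 genes tested with limma on log2(FPKM + 1). Among all genes tested, 0.697% were called lower and 1.93% higher. At an unadjusted p under 0.05, 4 of the 10 were lower and 1 was higher, against 8.45% and 9.36% of all genes tested. The 10 genes were chosen with earlier results of these data known, so the shares stand beside the counts as a description only. The called genes were Lrrc32 and Itgae, the surface anchor of the latent cytokine and the integrin chain induced by it. In 6 of the 10 both deficient libraries lay below all sufficient ones and in 1, Smad3, above them, while the libraries overlapped in 3. For all genes tested, 17.9% had the deficient libraries below without overlap and 18.9% above. The median log2 fold change of the 10 genes was -0.29, and that of all genes tested was -0.01. Without deficient replicates 1 and 3, or without 2 and 4, 0 of the 10 were called, and of all genes 11 or 8 were called higher and 5 or 0 lower.

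**Figure D1:**
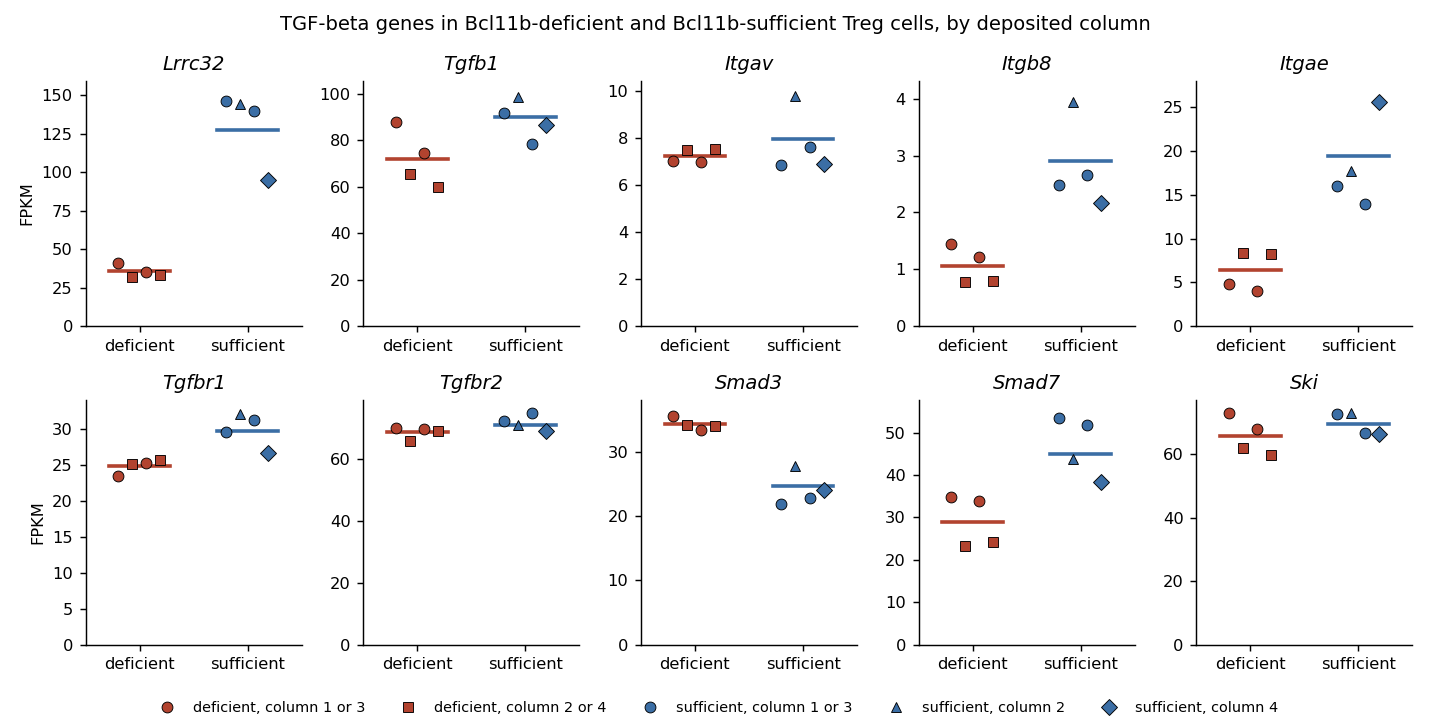
FPKM of each of the 10 genes in the 4 deficient and 4 sufficient columns. Points are columns, and equal marks within a group are columns averaged into 1 library. Lines are means over the resulting 2 and 3 libraries, and axes start at 0. All 4 deficient points of Lrrc32, Itgae, Itgb8, Smad7 and Tgfbr1 lie below all sufficient points, and those of Smad3 lie above them.

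Lrrc32 showed the largest fold change of the 10 genes, except without deficient replicates 2 and 4, where that of Itgae was larger (-1.88, against -1.68 for Lrrc32). Lrrc32 (ENSMUSG00000090958.2, GRCm38 chromosome 7, 98489283 to 98502181, plus strand) measured 41.1, 31.8, 35.3 and 33.5 FPKM in deficient replicates 1 to 4, against 145.9, 144.3, 139.8 and 94.95 FPKM in sufficient replicates 1 to 4. The groups did not overlap, and the lowest sufficient value was that of replicate 4. The means were 35.4 ± 3.98 FPKM in deficient (SD, n = 2) and 127.3 ± 28.1 FPKM in sufficient libraries (SD, n = 3), so deficient libraries held 27.8% of the sufficient level. On the log2(FPKM + 1) scale the fold change was -1.80 (SE 0.20, limma adjusted p = 0.00982). Permuting the 5 libraries in all 10 ways gave an exact two-sided p of 0.1, the lowest possible here. The call ended with either deficient library left out, at adjusted p = 0.0774 without replicates 1 and 3 and 0.0912 without replicates 2 and 4, and with no filter on low values (0.0540).

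Tgfb1, the ligand gene, was lower in the deficient libraries by much less than Lrrc32 and did not pass the test. Tgfb1 (ENSMUSG00000002603.15, GRCm38 chromosome 7, 25687002 to 25705077, plus strand) measured 87.9, 65.6, 74.5 and 59.9 FPKM in deficient replicates 1 to 4, against 91.8, 98.6, 78.4 and 86.5 FPKM in sufficient replicates 1 to 4. The columns overlapped, since deficient replicate 1 exceeded sufficient replicates 3 and 4, whereas the averaged libraries did not. Its log2 fold change of -0.33 (SE 0.14) did not pass (limma adjusted p = 0.281), with the deficient mean at 79.9% of the sufficient one. The ratio of Lrrc32 to Tgfb1 FPKM was 0.471 and 0.520 in deficient libraries, against 1.68, 1.46 and 1.10 in sufficient libraries, so the anchor's level was below the ligand's in both deficient libraries and above it in all 3 sufficient ones. The difference in the log2 ratio was -1.49 (exact permutation p = 0.1). The ratio of Lrrc32 to Foxp3 was 0.250 and 0.212 in deficient libraries, against 0.722, 0.730 and 0.575 in sufficient libraries, a difference of -1.54 in the log2 ratio (exact permutation p = 0.1). A ratio within a library does not move with the scaling of that library. Over the 6 ratios computed here and below, Benjamini-Hochberg adjustment of the exact permutation p-values gave 0.12 for each at p = 0.1 and 0.2 for the other.

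The activating integrin was read through both of its chains. Itgav, which encodes the alpha v chain (ENSMUSG00000027087.11, GRCm38 chromosome 2, 83724397 to 83806916, plus strand), measured 7.002, 7.504, 6.96 and 7.53 FPKM in deficient replicates 1 to 4, against 6.83, 9.77, 7.59 and 6.88 FPKM in sufficient replicates 1 to 4. The deficient values lay within the sufficient range. The log2 fold change was -0.11, with a 95% confidence interval of -0.49 to 0.28 (limma adjusted p = 0.785). Itgb8, which encodes the beta 8 chain (ENSMUSG00000025321.14, GRCm38 chromosome 12, 119158022 to 119238802, minus strand), was the lowest of the 10 genes in both groups, at 1.44, 0.777, 1.21 and 0.790 FPKM in deficient replicates 1 to 4, against 2.49, 3.95, 2.65 and 2.17 FPKM in sufficient replicates 1 to 4. Every deficient value lay below every sufficient one. Approximately 22 to 266 fragments stood behind a column's value of Itgb8 if all came from its longest transcript, so its values are the least precise of the set. The log2 fold change of Itgb8 was -0.91 (SE 0.25, limma adjusted p = 0.125), which did not pass. The ratio of Itgb8 to Itgav was 0.190 and 0.104 in deficient libraries, against 0.356, 0.404 and 0.316 in sufficient libraries, a difference of -1.34 in the log2 ratio (exact permutation p = 0.1), or of -0.80 with 1 FPKM added to each gene.

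Itgae was the other gene called lower. Itgae (ENSMUSG00000005947.11, GRCm38 chromosome 11, 73090583 to 73147446, plus strand) measured 4.79, 8.39, 4.05 and 8.22 FPKM in deficient replicates 1 to 4, against 16.01, 17.8, 14.0 and 25.6 FPKM in sufficient replicates 1 to 4. The groups did not overlap, but the 2 deficient libraries differed 1.88-fold from each other, the widest gap among the 10 genes, and sufficient replicate 4 was the highest. The means were 6.36 ± 2.75 FPKM in deficient (SD, n = 2) and 19.5 ± 5.51 FPKM in sufficient libraries (SD, n = 3). With a log2 fold change of -1.49 (SE 0.28), Itgae passed close to the threshold (limma adjusted p = 0.0448). The call ended without sufficient replicate 1 (0.0503), 2 (0.0917) or 4 (0.0876), without the averaged sufficient replicates 1 and 3 (0.0515) and without either deficient library (0.252 and 0.0912). It also ended with a pseudocount of 0.1 (0.0530), with robust empirical Bayes (0.0616) and with another filter on low values (0.0585 and 0.136), whereas the fold change was negative under all 20 alternatives, from -1.88 to -1.10. Itgb7, the gene of the beta 7 chain that pairs with alpha E, measured 323.8 and 357.9 FPKM in deficient libraries, against 361.1, 346.7 and 372.1 FPKM in sufficient libraries, and was not called (adjusted p = 0.757). The ratio of Itgae to Itgb7 was 0.0137 and 0.0232 in deficient libraries, against 0.0415, 0.0513 and 0.0688 in sufficient libraries, a difference of -1.57 in the log2 ratio (exact permutation p = 0.1).

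**Figure D2:**
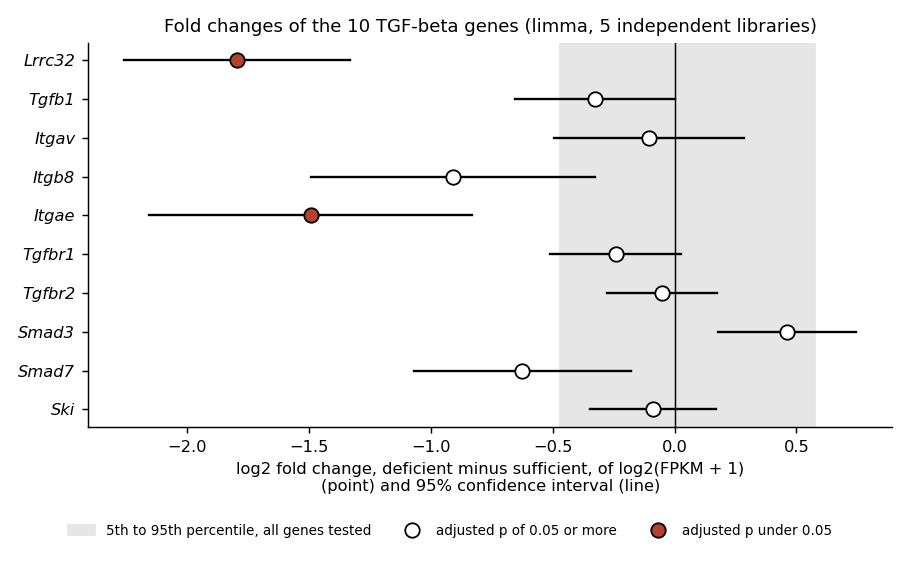
Log2 fold change (deficient minus sufficient, points) of the 10 genes with 95% confidence intervals from limma (lines), against the range from the 5th to the 95th percentile of all 10614 genes tested (grey band, -0.47 to 0.58). Lrrc32 at -1.80 and Itgae at -1.49 are the 2 filled points, and Itgb8 and Smad7 also lie left of the band without passing the test.

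Neither receptor gene passed the test. Tgfbr1 (ENSMUSG00000007613.15, GRCm38 chromosome 4, 47353222 to 47414931, plus strand) measured 23.6, 25.1, 25.3 and 25.7 FPKM in deficient replicates 1 to 4, against 29.7, 32.1, 31.2 and 26.7 FPKM in sufficient replicates 1 to 4. Every deficient value of Tgfbr1 lay below every sufficient one, by a narrow margin at sufficient replicate 4. Its log2 fold change of -0.24 (SE 0.11) did not pass (limma adjusted p = 0.331). Tgfbr2 (ENSMUSG00000032440.13, GRCm38 chromosome 9, 116084293 to 116175360, minus strand) measured 70.0, 65.9, 69.6 and 68.9 FPKM in deficient replicates 1 to 4, against 72.3, 70.9, 75.0 and 68.9 FPKM in sufficient replicates 1 to 4. Its values overlapped, with a log2 fold change of -0.05 and a 95% interval of -0.28 to 0.17 (limma adjusted p = 0.821). Scaling libraries to equal totals moved the median of all genes to 0.18 and the fold changes of Tgfbr2, Ski and Itgav above 0, to 0.16, 0.12 and 0.08. The ratio of Tgfbr1 to Tgfbr2 was 0.350 and 0.377 in deficient libraries, against 0.414, 0.453 and 0.387 in sufficient libraries (exact permutation p = 0.2).

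The sequence before the start of 3 of the 10 genes is given to show what lies upstream of the ligand, the ligand-binding receptor and the Smad that carries the signal. In the RefSeq promoter table of GRCm38.p6, 7 of the 10 members had an entry, with 8 windows in all. Lrrc32, Itgae and Smad7 had none, so neither gene called lower is covered. The 250 bases before the start are given here 5′ to 3′. The letters CAGAC, or GTCTG on the other strand, which hold the core of Smad-binding elements, are in capitals.
Tgfb1, chr7:25686752-25687001, plus strand: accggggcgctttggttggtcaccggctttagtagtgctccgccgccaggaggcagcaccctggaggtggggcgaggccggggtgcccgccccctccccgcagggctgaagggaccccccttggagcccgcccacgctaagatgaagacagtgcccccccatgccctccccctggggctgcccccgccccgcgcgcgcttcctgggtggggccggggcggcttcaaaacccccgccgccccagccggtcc
Tgfbr2, chr9:116175364-116175613, minus strand: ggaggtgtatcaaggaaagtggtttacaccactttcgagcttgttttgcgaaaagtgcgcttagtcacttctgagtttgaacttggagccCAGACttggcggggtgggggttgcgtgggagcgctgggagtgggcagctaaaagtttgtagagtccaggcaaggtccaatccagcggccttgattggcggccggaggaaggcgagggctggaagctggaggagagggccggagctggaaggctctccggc
Smad3, chr9:63757995-63758244, minus strand: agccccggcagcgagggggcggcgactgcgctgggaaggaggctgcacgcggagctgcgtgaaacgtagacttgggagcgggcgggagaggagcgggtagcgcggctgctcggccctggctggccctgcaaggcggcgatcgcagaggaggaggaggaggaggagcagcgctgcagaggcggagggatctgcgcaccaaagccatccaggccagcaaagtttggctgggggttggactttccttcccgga

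The Tgfbr2 window held 1 such match, 160 bases before the start, and the windows of Tgfb1 and Smad3 held 0. Over the 8 windows 3 held a match, while 42.2% of the 32817 windows of all genes did. TGTGG, or CCACA on the other strand, the core of the Runx motif, was in 4 of the 8 windows and in 49.3% of all windows, and in 0 of the 3 shown. G and C made up 75.2% of the Tgfb1 window, 58.4% of the Tgfbr2 window and 69.2% of the Smad3 window. A match is a description of these letters only.

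Smad3 was the only one of the 10 genes with a higher mean in deficient libraries. Smad3, the signal-carrying Smad (ENSMUSG00000032402.12, GRCm38 chromosome 9, 63646767 to 63757994, minus strand), measured 35.7, 34.2, 33.5 and 34.0 FPKM in deficient replicates 1 to 4, against 21.8, 27.9, 22.9 and 24.2 FPKM in sufficient replicates 1 to 4. Every deficient value exceeded every sufficient one, and the 2 deficient libraries differed only 1.014-fold. Its log2 fold change was 0.46 (SE 0.12), which did not pass (limma adjusted p = 0.110). The partners Smad2 and Smad4 measured 7.80 and 8.63 FPKM and 37.1 and 35.3 FPKM in deficient libraries. In sufficient libraries Smad2 measured 8.85, 8.10 and 8.11 FPKM and Smad4 32.9, 33.2 and 31.0 FPKM, and neither was called (adjusted p = 0.943 and 0.448).

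Both restraining genes had lower means in deficient libraries and neither passed. Smad7, the inhibitory Smad that TGF-beta itself induces (ENSMUSG00000025880.11), measured 34.7, 23.2, 33.9 and 24.3 FPKM in deficient replicates 1 to 4, against 53.5, 43.8, 51.8 and 38.3 FPKM in sufficient replicates 1 to 4. The groups did not overlap, although the 2 deficient libraries differed 1.44-fold. A log2 fold change of -0.62 (SE 0.19) did not pass (limma adjusted p = 0.154). Ski, the corepressor of Smad complexes (ENSMUSG00000029050.15, GRCm38 chromosome 4, 155154075 to 155222592, minus strand), measured 72.9, 61.8, 67.9 and 59.8 FPKM in deficient replicates 1 to 4, against 72.7, 72.8, 66.7 and 66.3 FPKM in sufficient replicates 1 to 4. The values of Ski overlapped, with a log2 fold change of -0.09 and a 95% interval of -0.35 to 0.17 (limma adjusted p = 0.720). The ratio of Smad7 to Smad3 was 0.990 and 0.696 in deficient libraries, against 2.36, 1.57 and 1.59 in sufficient libraries. Smad7 thus lay above Smad3 in all 3 sufficient libraries and in neither deficient one, a difference of -1.12 in the log2 ratio (exact permutation p = 0.1).

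**Figure D3:**
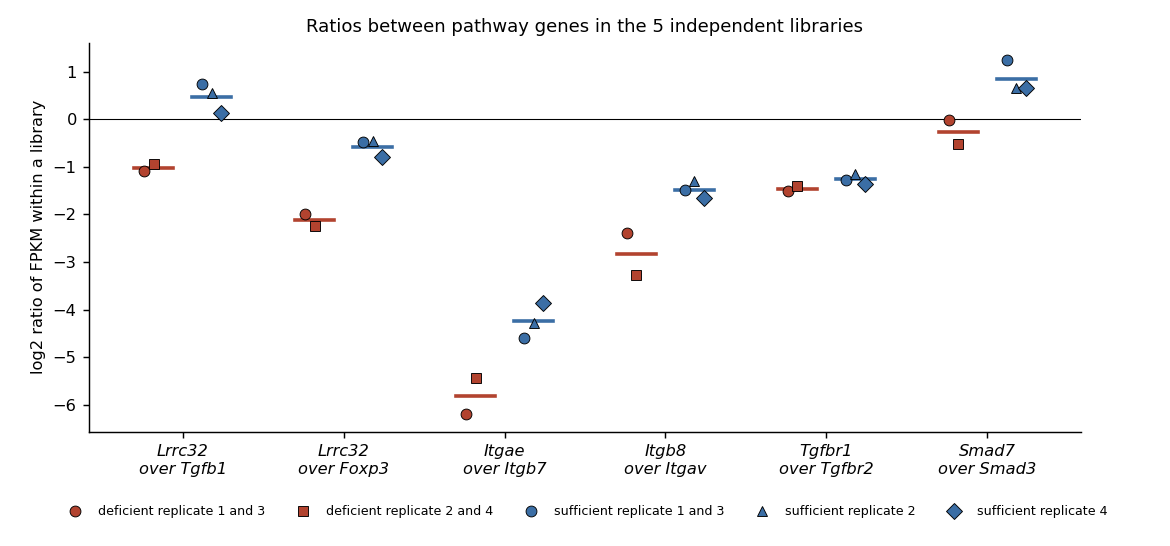
Log2 ratio of FPKM between gene pairs in each of the 2 deficient and 3 sufficient libraries left after averaging, with lines at the group means. Lrrc32 over Tgfb1 and Smad7 over Smad3 lie above 0 in all 3 sufficient libraries and below 0 in both deficient ones.

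The order of levels, which FPKM allows between genes, differed at the top. In deficient libraries Tgfb1 (72.0 FPKM), Tgfbr2 (68.6 FPKM) and Ski (65.6 FPKM) led and overlapped with each other. Lrrc32 (35.4 FPKM), Smad3 (34.4 FPKM), Smad7 (29.0 FPKM) and Tgfbr1 (24.9 FPKM) followed, each overlapping with the next. Itgav (7.25 FPKM) and Itgae (6.36 FPKM) overlapped, and Itgb8 (1.06 FPKM) was last. In sufficient libraries Lrrc32 (127.3 FPKM) was first and overlapped with Tgfb1 (90.1 FPKM). Tgfbr2 (71.1 FPKM) and Ski (69.6 FPKM) came next, then Smad7 (44.9 FPKM), Tgfbr1 (29.7 FPKM), Smad3 (24.8 FPKM), Itgae (19.5 FPKM), Itgav (7.96 FPKM) and Itgb8 (2.90 FPKM). These orders are descriptions and were not tested.

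Other genes of the pathway did not move in 1 direction. Of 81 further genes in 6 lists, 60 were tested, with 3 called higher and 3 lower, against 1.93% and 0.697% of all genes tested, and their median log2 fold change was 0.03. Both deficient libraries lay above all sufficient ones in 15 of the 60 and below them in 14, against 18.9% and 17.9% of all genes tested. The 21 others were below the filter of a mean of 1 FPKM.

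Among 10 tested genes of latent complexes and their activation, Itgb3 was called higher and Nrp1 lower. Itgb3, the beta 3 chain, another partner of alpha v, measured 54.8 and 59.0 FPKM in deficient libraries, against 20.6, 26.3 and 20.5 FPKM in sufficient libraries. It differed by 1.31 on the log2 scale (SE 0.14, limma adjusted p = 0.00959), and its level exceeded that of Itgav in all 5 libraries. Itgb3 is also a platelet gene. The summed FPKM of 10 platelet markers, which include it, was 61.3 to 62.6 in deficient and 21.98 to 31.1 in sufficient libraries. Most of that sum is Itgb3 itself, so the sum mainly repeats the difference in Itgb3. Of the other 9, Clec1b (2.64 and 1.04 FPKM in deficient libraries, against 0, 0.330 and 0.263 FPKM in sufficient libraries) and Gp1ba (1.62 and 1.17 FPKM, against 0.836, 0.850 and 1.07 FPKM in sufficient libraries) were higher in deficient libraries without overlap. Pf4, Ppbp, Gp9, Itga2b and Treml1 overlapped, and Gp6 and Gp1bb were at or near 0. The part of platelet RNA in the value of Itgb3 was not tested. Nrp1, a surface receptor of thymic Treg cells that can bind TGF-beta, measured 24.4 and 30.8 FPKM in deficient libraries, against 44.9, 51.5 and 54.3 FPKM in sufficient libraries (log2 fold change -0.85, SE 0.14, adjusted p = 0.0319). Hsp90b1, the chaperone that GARP needs to fold, averaged 159 FPKM in both groups (adjusted p = 0.975), and Itgb1 was not called (55.1 ± 12.5 FPKM in deficient libraries and 87.3 ± 36.8 FPKM in sufficient ones, adjusted p = 0.429). Of the other 2 ligands, Tgfb3 measured 1.65 and 2.45 FPKM in deficient libraries, against 0.473, 0.313 and 0.391 FPKM in sufficient libraries (adjusted p = 0.0531). Tgfb2 was below 0.1 FPKM throughout. The call of Itgb3 ended without either deficient library (adjusted p = 0.0774 without replicates 1 and 3, 0.0854 without 2 and 4). That of Nrp1 ended likewise (0.198 and 0.0912) and without sufficient replicate 2 (0.0792) or 4 (0.0772), with libraries scaled to equal totals (0.0682) and with no filter (0.0890).

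A few genes of the same list are named after their values were seen. Furin, the protease that cleaves the TGF-beta precursor, averaged 43.8 ± 2.88 FPKM in deficient libraries and 31.5 ± 1.77 FPKM in sufficient ones (adjusted p = 0.0731). Nrros, a relative of GARP that anchors latent TGF-beta on myeloid cells, averaged 46.3 ± 2.62 FPKM in deficient libraries and 33.2 ± 2.34 FPKM in sufficient ones (adjusted p = 0.0745). Itgb5, the beta 5 chain, averaged 5.58 ± 1.45 FPKM in deficient libraries and 1.27 ± 0.735 FPKM in sufficient ones (adjusted p = 0.0548). Macrophage markers were higher in the same libraries, as given above, and their part in these values was not tested.

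Of 7 tested receptors and co-receptors 1 was called higher and 0 lower. It was Tgfbr3, betaglycan, a co-receptor that presents ligand to Tgfbr2, at 7.88 and 6.19 FPKM in deficient libraries, against 3.58, 3.49 and 2.96 FPKM in sufficient libraries (log2 fold change 0.88, SE 0.16, limma adjusted p = 0.0395). Fkbp1a, Acvr1b and Bmpr2 were not called (adjusted p = 0.596, 0.773 and 0.887). Of 19 tested Smads and Smad regulators 0 were called higher and 1 lower. It was Tgif1, a corepressor of Smad complexes, at 32.1 and 21.8 FPKM in deficient libraries, against 65.6, 106.8 and 62.5 FPKM in sufficient libraries (log2 fold change -1.49, SE 0.26, adjusted p = 0.0358). Skil, the close relative of Ski and a target of the pathway, measured 29.5 and 27.9 FPKM in deficient libraries, against 40.0, 59.2 and 39.3 FPKM in sufficient libraries (adjusted p = 0.139). Strap was not called (adjusted p = 0.377). Without deficient replicates 1 and 3 or 2 and 4 the adjusted p was 0.276 and 0.133 for Tgfbr3, and 0.138 and 0.215 for Tgif1. Both calls also ended without sufficient replicate 2 (0.0804 for Tgfbr3 and 0.0555 for Tgif1), replicate 4 (0.0859 and 0.0633) or replicates 1 and 3 (0.0695 and 0.0536), and that of Tgfbr3 without replicate 3 alone (0.0565). Processing ended them too, with no filter (0.109 for Tgfbr3 and 0.119 for Tgif1) and quantile normalization (0.0532 and 0.05, which just missed the threshold), and for Tgif1 with equal totals (0.0752) and robust empirical Bayes (0.0532). In the non-Smad branch 0 of 8 were called in either direction, with Rhoa, Daxx and Tab2 at adjusted p = 0.356, 0.396 and 0.295.

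Genes that TGF-beta induces were lower in deficient libraries more often than higher, but did not all move together. Of the 14 in the list, tested or not, 7 were lower without overlap and 3 higher. The shares of all genes tested were 17.9% and 18.9%. Of 11 tested, 4 had a log2 fold change above 0, and the median was -0.28. Among them 0 were called higher and 1 lower. It was Cdkn1a, a cell cycle inhibitor, at 1.68 and 1.75 FPKM in deficient libraries, against 4.28, 7.08 and 5.02 FPKM in sufficient libraries (log2 fold change -1.23, SE 0.21, limma adjusted p = 0.0341). Nt5e, which encodes the ectoenzyme CD73, averaged 51.8 ± 5.42 FPKM in deficient libraries and 81.3 ± 10.6 FPKM in sufficient ones (adjusted p = 0.0666). The list's largest fold change was positive and did not pass. It was that of Tgfbi, a matrix protein gene named after its values were seen, at 5.78 and 3.43 FPKM in deficient libraries, against 0.215, 1.13 and 1.22 FPKM in sufficient libraries (log2 fold change 1.61, SE 0.33, adjusted p = 0.0548). Macrophage markers were higher in the same libraries, and their part in the value of Tgfbi was not tested. Of 9 tested genes that TGF-beta represses in T cells, 1 was called higher and 0 lower. It was Gzma, a cytotoxic protease also used by NK cells, at 12.6 and 31.5 FPKM in deficient libraries, against 0.225, 2.54 and 1.24 FPKM in sufficient libraries (log2 fold change 3.30, SE 0.50, adjusted p = 0.0259). The summed NK cell markers given above, which include Gzma and are mostly Fcer1g, were higher in the same libraries. Of the other NK cell markers Klrd1 was called higher, Eomes and Klrb1c were not called, and Ncr1, Klre1 and Klra8 stayed low. The part of NK cells in the value of Gzma was not tested. Leaving out deficient replicates 1 and 3 or 2 and 4 ended both calls, at adjusted p = 0.205 and 0.175 for Cdkn1a and 0.0824 and 0.154 for Gzma. So did leaving out sufficient replicate 4 (0.0772 for Cdkn1a and 0.0690 for Gzma), and for Cdkn1a sufficient replicate 2 (0.0593). With no filter both calls ended (0.107 and 0.103), as did that of Cdkn1a with equal totals (0.0619) and that of Gzma with a pseudocount of 0.1 (0.0573) or robust empirical Bayes (0.0854). Myc, Gata3 and Klrg1 were not called (adjusted p = 0.565, 0.353 and 0.653). Klrg1 measured 22.2 FPKM in sufficient replicate 2 alone, against 1.012 and 8.27 FPKM in the other sufficient and 3.71 and 2.69 FPKM in the deficient libraries.

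**Figure D4:**
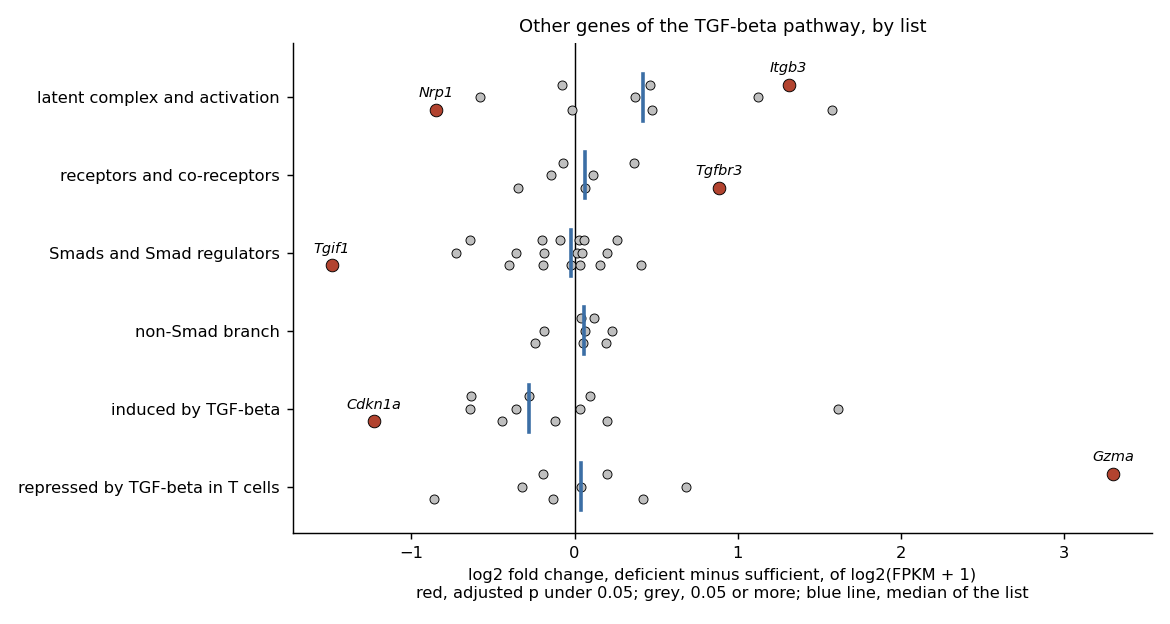
Log2 fold change (deficient minus sufficient) of each tested gene in 6 lists around the 10 genes, with a blue line at each list's median. A gene of 2 lists is drawn in both. The 6 called genes are named, 3 on each side of 0, and some genes that were not called lie as far out, such as Tgfbi at 1.61 and Itgb5 at 1.58.

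The genes most like Lrrc32 over the 5 libraries, by the root mean square difference of centred log2(FPKM + 1), were Ctla4 (0.12), Dusp5 (0.23), Tnfrsf4 (0.28), Bmyc (0.28) and Nfil3 (0.28). Ctla4, an inhibitory receptor of Treg cells, measured 118.6 and 102.8 FPKM in deficient libraries, against 477.2, 374.8 and 274.1 FPKM in sufficient libraries, and like Lrrc32 was lowest among sufficient libraries in replicate 4. Nfil3, a transcription factor, measured 14.0 and 9.49 FPKM in deficient libraries, against 37.5, 54.6 and 21.4 FPKM in sufficient libraries. Those most like Itgae were Abcb1a (0.25), Gata1 (0.25), Sdcbp2 (0.26), Cst7 (0.28) and Ncmap (0.29). Abcb1a, a drug efflux transporter, measured 2.21 and 3.86 FPKM in deficient libraries, against 5.03, 6.25 and 10.6 FPKM in sufficient libraries, so that it shared the high value of Itgae in sufficient replicate 4. Likeness over 5 libraries in 2 groups mostly follows the difference between the groups and is given as a description.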

How the data were processed

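RNA was sequenced from 8 samples, 4 per group. The authors deposited FPKM per gene, a unit taken from the name of the deposited table and its values. Per the submitters' processing notes, the mm10 build was used with Cuffdiff 2.2.1, STAR 2.5.1, FastQC, Cuffnorm 2.2.1, cutadapt 1.12 and Trim Galore 0.4.2, whose settings the sources used here do not give. Of 16 value columns, 8 matched no sample and were not used. FPKM is relative within a library, so abundant transcripts move all other values.

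Depth was estimated from the step of 1 fragment in 2172 genes with 1 annotated transcript over 1500 bases, less 150 bases. Pairs of columns whose log ratios spread by under 1.5 times sampling noise, at 150 to 500 fragments, were averaged. Genes averaging 1 FPKM or more over the 5 libraries were fitted on log2(FPKM + 1) in limma 3.58.1 (R 4.3.3; two-sided, variance trended on the mean), with Benjamini-Hochberg adjustment over all genes tested. This log scale understates changes of low genes. Ratios used an exact two-sided permutation test, with Benjamini-Hochberg adjustment over 6 ratios. The script was tested on simulated data. Coordinates are from GENCODE M21.

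The members, lists and tests were chosen with earlier results of these data known. Named genes were the members, Bcl11b, Foxp3, called list genes, up to 3 uncalled genes per list with the highest mean FPKM, fixed partners, and the 5 genes most like Lrrc32 and Itgae. Furin, Nrros, Itgb5, Tgfbi and the single cell type markers were named after their values were seen.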

Additional observations from a re-analysis of the deposited data

How the results depend on the processing

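Lrrc32 stayed negative under all 20 alternatives (-1.99 to -1.59) and was called in 17. Of the other members, Itgav, Tgfbr2 and Ski turned: with libraries scaled to equal totals to 0.0808, 0.159 and 0.122, Tgfbr2 with quantile normalization to 0.000581, Itgav to 0.0351 without sufficient replicate 2 (lowest -0.1901 with others left out), and Ski to 0.0164 without deficient replicates 2 and 4 (lowest -0.1916). Among pathway genes Itgb3 was called in 18 of 20, Nrp1 and Gzma in 14 of 20, Cdkn1a in 13 of 19, Tgif1 in 11 of 20 and Tgfbr3 in 11 of 19. The cause of these changes was not tested. 

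Counts called higher and lower over all genes were 205 and 74. They were 124 higher with a pseudocount of 0.1, 91 and 8 with no filter, 73 and 40 with a filter at a mean of 5 FPKM, 341 and 30 with equal totals, where 91.9% of calls were higher against 73.5%, and 8 to 216 and 0 to 81 with columns or libraries left out. Members called lower were 2, but 1 with a pseudocount of 0.1, with the filter at 5 FPKM or with robust empirical Bayes, 0 with no filter, and 0 to 2 with columns or libraries left out. Of the pathway genes, 3 were called in each direction. No filter left 1 higher and 0 lower, equal totals gave 7 and 0, robust empirical Bayes 5 higher, and leaving out columns or libraries 0 to 5 higher and 0 to 3 lower. Without a deficient library 1 is left, which is assumed to vary like the sufficient ones.

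With the 8 columns as separate libraries the counts were 1004 and 847 over all genes, 1 and 5 members and 10 and 9 pathway genes. With the replicate block added they were 776 and 642, 1 and 4, and 9 and 7. Whether equal numbers pair the samples was not settled. The correlations of their deviations were small, at 0.0275, 0.0581, 0.126 and 0.0906 for replicates 1 to 4. Deficient replicate 1 correlated most with sufficient replicate 2 (0.13), and deficient replicates 2, 3 and 4 most with their own number. If the near-identical columns are repeats of 1 library, which the labels do not say, the p-values from 8 columns are too small. The 6 log2 ratios kept their sign throughout and over 8 columns were -1.56 (Lrrc32 over Tgfb1), -1.57 (Lrrc32 over Foxp3), -1.48 (Itgae over Itgb7), -1.34 (Itgb8 over Itgav), -0.20 (Tgfbr1 over Tgfbr2) and -1.22 (Smad7 over Smad3), at an exact permutation p of 0.0286. With 5 libraries no such test can go below 0.1.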
